A study of Mus musculus with 10 samples.

Results

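The 10 genes described here encode troponins and tropomyosins, the proteins that switch the thin filament of striated muscle on and off. They were taken by symbol from the 55359 genes of the deposited table, as the slow, fast and cardiac isoforms *Tnnt1*, *Tnnt2*, *Tnnt3*, *Tnni1*, *Tnni2*, *Tnnc1*, *Tnnc2*, *Tpm1*, *Tpm2* and *Tpm3*, a rule that uses the symbol alone. The study compared C2C12 cells, an established line of mouse myoblasts that fuse into myotubes when serum is withdrawn, after transfection with an siRNA against *Fndc1* (si-*Fndc1*, 5 libraries) or with a control siRNA (si-Control, 5 libraries). *Fndc1* encodes a protein with fibronectin type III domains that the study examined as a secreted factor in myogenesis. All 10 libraries came from cells given 100 nM of siRNA and then kept for 4 days in 2% horse serum according to the sample labels, whereas the description of the series names a harvest 48 h after transfection. The labels also list 20% fetal bovine serum for every library. The labels do not say whether the libraries of a group were separate cultures, so p-values measure only the spread between these samples, which may be technical. An siRNA knockdown in 1 cell line leaves part of the transcript in place, and the cells are cultured myotubes without nerve or load.

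Tropomyosin lies along the actin filament and covers the sites where myosin binds. Troponin C binds calcium, troponin I holds the complex on actin in its inhibited state, and troponin T ties both to tropomyosin, so that calcium shifts tropomyosin and permits contraction. Each troponin subunit is encoded by separate genes used mainly in slow, fast or cardiac fibres, and embryonic muscle and cultured myotubes carry a mixture of them.

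Promoter sequence was at hand for 8 of the 10 genes, from RefSeq on build GRCm38.p6, and covered 11 annotated starts. *Tnni2* and *Tnnt3* had no entry. The 250 bases before the start are shown for *Tnnt1* and *Tpm2*, which were both higher in si-*Fndc1*, and for *Tpm1*, which competes with *Tpm2* for a place in the filament and was not. Capitals mark the E-box, CANNTG, the motif bound by MYOD1 and MYOG a pattern that reads the same on both strands. The other motifs were searched on both strands as well.
*Tnnt1*, chr7:4515976-4516225 (- strand): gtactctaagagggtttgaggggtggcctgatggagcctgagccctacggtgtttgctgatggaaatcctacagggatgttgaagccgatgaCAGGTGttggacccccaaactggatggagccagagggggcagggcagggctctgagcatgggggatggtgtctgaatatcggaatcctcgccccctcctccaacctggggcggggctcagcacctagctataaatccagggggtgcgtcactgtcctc
*Tpm2*, chr4:43523555-43523804 (- strand): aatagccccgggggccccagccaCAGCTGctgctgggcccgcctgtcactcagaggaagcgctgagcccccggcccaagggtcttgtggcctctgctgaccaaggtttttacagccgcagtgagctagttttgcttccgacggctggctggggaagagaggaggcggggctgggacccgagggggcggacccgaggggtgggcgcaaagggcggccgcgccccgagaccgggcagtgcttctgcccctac
*Tpm1*, chr9:67049214-67049463 (- strand): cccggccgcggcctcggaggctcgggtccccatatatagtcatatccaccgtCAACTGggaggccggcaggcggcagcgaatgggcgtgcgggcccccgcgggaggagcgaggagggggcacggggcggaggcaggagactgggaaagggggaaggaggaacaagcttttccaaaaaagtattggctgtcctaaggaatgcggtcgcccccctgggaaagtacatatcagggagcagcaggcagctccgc
Each of these windows held 1 E-box. All 11 starts of the 8 genes held at least 1, from 1 to 4, and so did 66.2% of the 32851 promoter windows of the mouse table. A TATAAA box was found in the *Tnnt1* window only, against 12.4% of all windows. The TEAD motif CATTCC was in the windows of *Tpm1*, *Tnnc1* and 1 of 2 starts of *Tnnt2*, against 12.6% of all windows. No window held the MEF2 site or the CArG box, which occurred in 2.92% and 1.47% of all windows.

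Between 66771605 and 75995168 reads were counted per library in si-Control and between 56332844 and 72839369 in si-*Fndc1*, and the 10 genes took 0.786% to 0.831% and 0.831% to 0.909% of them. The target of the siRNA, *Fndc1*, measured 26.7, 24.7, 28.7, 29.6 and 29.2 FPKM (fragments scaled to transcript length and library depth) in si-Control 1 to 5 and 20.4, 23.5, 20.8, 21.1 and 18.7 FPKM in si-*Fndc1* 1 to 5, so that every knockdown library was below every control. Its log2 fold change was -0.40 ± 0.07 (standard error, SE, with an adjusted p = 0.000934 by the quasi-likelihood test of edgeR and Benjamini-Hochberg over all genes tested). Across genes, which are not independent replicates, the log2 fold change ran against the GC content of the transcript (Spearman's rho = -0.53 over 11185 genes), and the 10 genes have a GC content of 51.1% to 57.5%. With an offset in every library for the trend of counts with GC content and transcript length, the log2 fold change of *Fndc1* was -0.07 (adjusted p = 0.301, same test), and the call was lost. The 10 myotube markers summed to 1692 to 1962 FPKM in si-*Fndc1* and 1802 to 2008 FPKM in si-Control, with *Ckm*, *Mymk* and *Casq1* (3) higher and *Ryr1* and *Mymx* (2) lower of 10 tested, and the cells carried the markers of their label in both groups. With the GC and length offset *Casq1* was not called. All 11 liver markers in the table, such as *Alb*, were higher in si-*Fndc1*, with sums of 46.9 to 172 FPKM against 0.175 to 6.08 FPKM. Of 10 fibroblast markers, 8 were tested, of which 5 were lower (*Col1a1*, *Col1a2*, *Fbn1*, *Pdgfrb* and *Col3a1*) and 2 higher (*Dcn* and *Postn*), and the list summed to 1219 to 1259 FPKM in si-*Fndc1* against 1488 to 1615 FPKM in si-Control. Smooth muscle markers summed to 1881 to 1933 FPKM in si-*Fndc1* and 1892 to 1964 FPKM in si-Control, with *Cnn1* (1) higher and *Smtn* and *Lmod1* (2) lower of 8 tested, and of the 9 tested myoblast and proliferation markers 2 were higher, *Id2* and *Cdk1*. Of all genes tested, 17.3% were called higher and 17.2% lower. These shares and the marker calls are from the fit without an offset. The part of these marker transcripts in the results below was not tested.

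Of the 10 genes, *Tnni2*, *Tnnt1* and *Tpm2* rose in si-*Fndc1* and none fell. Each of the 3 had every si-*Fndc1* library above every si-Control library. The tests came from 1 fit over 13548 genes with a mean of at least 0.5 FPKM, a filter that all 10 genes passed, in which 17.3% of genes were called higher and 17.2% lower. FPKM ranges lay apart with si-*Fndc1* higher for 12.1% of the genes tested. A count of 3 among 10 stands beside these shares as a description. On quantile-normalized values 1 of the 10 was called higher, against 15.8% of all genes, and 3 were called lower, against 18.8%. With an offset for GC content and length 5 were called higher, against 11.4% of the genes that have a GC content (7.88% with a replicate block added), and with the annotated length in that offset 1 was called lower, against 10.4%. The median log2 fold change of the 10 was 0.07, against 0.00 over all genes tested. In bulk RNA a change in the share of cells that carry a transcript and a change in its level per cell cannot be told apart.

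**Figure D1:**
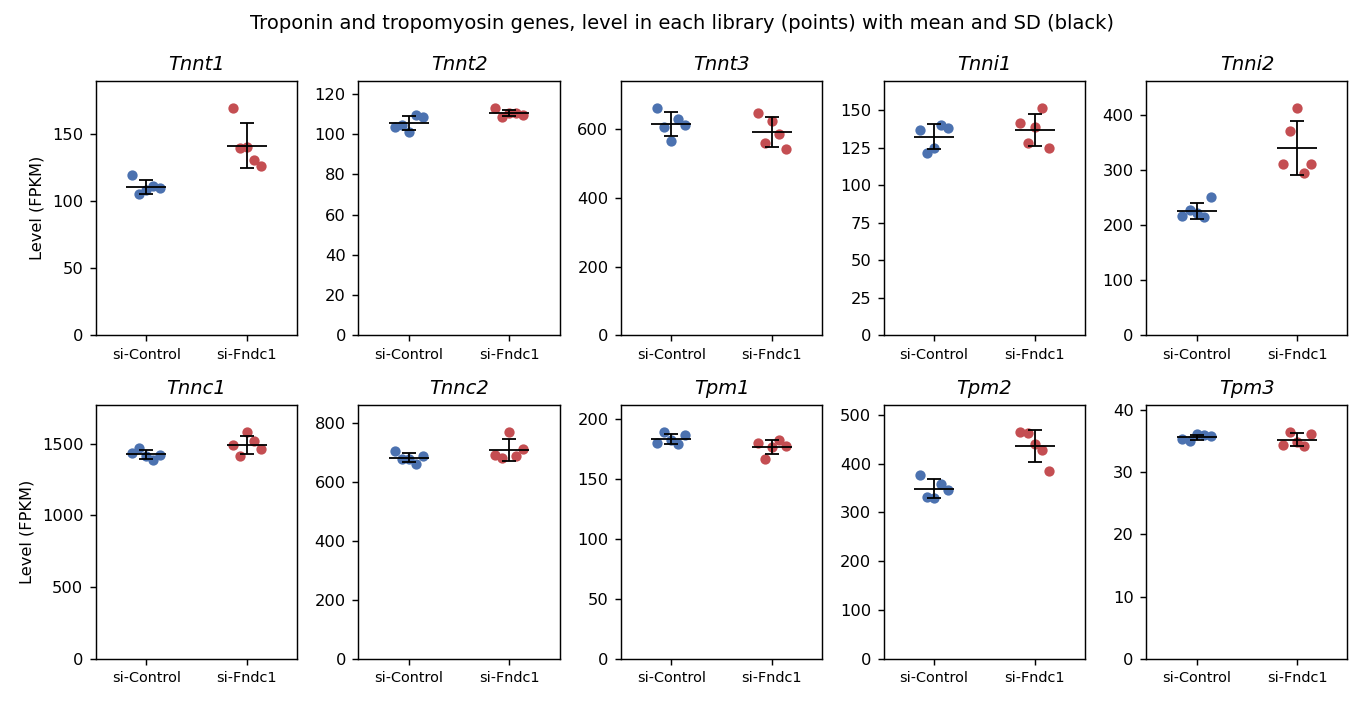
Level in FPKM (vertical axes, from 0) of the 10 troponin and tropomyosin genes in the 5 si-Control (blue) and 5 si-*Fndc1* (red) libraries, with each group's mean and SD in black. The red points lie above all blue points for *Tnnt1*, *Tnni2* and *Tpm2*, and overlap them for the other 7 genes.

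Troponin T was carried by *Tnnt3*, *Tnnt1* and *Tnnt2*. *Tnnt1* (ENSMUSG00000064179, listed on chromosome 7 from 4507569 to 4519003, minus strand) encodes the slow skeletal form. It measured 119, 105, 108, 111 and 109.6 FPKM in si-Control 1 to 5 and 169, 139, 141, 131 and 126.4 FPKM in si-*Fndc1* 1 to 5. The lowest knockdown library was above the highest control, and si-*Fndc1* 1 stood above the other 4. Means were 111 ± 5.30 and 141 ± 16.7 FPKM (SD, n = 5 each), a ratio of 1.28. The log2 fold change was 0.36 ± 0.07 (SE, adjusted p = 0.00308, edgeR quasi-likelihood with Benjamini-Hochberg). It was 0.21 (adjusted p = 0.0757, limma) on quantile-normalized log2(FPKM + 1), a scaling that forces the same distribution on every library, and there the call was lost. Counts behind these values ranged from 17405 to 29319 per library.

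*Tnnt2* (ENSMUSG00000026414, chromosome 1 from 135764092 to 135779998, plus strand) encodes the cardiac form, which developing skeletal muscle also makes. Its level was 103, 104, 101, 109.6 and 109 FPKM in si-Control and 113, 109, 111, 111 and 109.5 FPKM in si-*Fndc1*. The ranges overlapped, although 3 knockdown libraries were above all controls. The log2 fold change of 0.08 ± 0.03 missed the threshold (SE, adjusted p = 0.0697, edgeR quasi-likelihood with Benjamini-Hochberg). It passed in 4 of 23 alternatives. With the GC and length offset it was 0.25 (adjusted p = 0.000232, same test), whereas it was -0.05 on quantile-normalized FPKM. Markers of cardiomyocytes were low but not all absent. *Myl7* had no count in all 10 libraries, *Tnni3* was at most 0.297 FPKM and *Nppa* at most 0.161 FPKM, whereas *Gata4* averaged 2.63 FPKM in si-Control and 2.57 FPKM in si-*Fndc1*, *Myh6* 1.80 and 1.36 FPKM, and *Nppb* 1.59 and 1.57 FPKM. The 10 cardiomyocyte markers summed to 5.77 to 6.37 FPKM in si-*Fndc1* and 6.42 to 7.32 FPKM in si-Control. *Gata4*, *Myh6* and *Nppb* (3) passed the filter on low values, and none of them was called.

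*Tnnt3* (ENSMUSG00000061723, chromosome 7 from 142052573 to 142069746, plus strand), the fast form, had the highest deposited level of the 3. It measured 661, 605, 567, 631 and 613 FPKM in si-Control and 649, 561, 624, 586 and 542 FPKM in si-*Fndc1*, ranges that overlapped. The log2 fold change was -0.05 ± 0.06 (SE, adjusted p = 0.557, edgeR quasi-likelihood with Benjamini-Hochberg), and on quantile-normalized FPKM it was -0.30 and called lower (adjusted p = 0.0220, limma). *Prr33*, which lies on the opposite strand and overlaps *Tnnt3*, had 1.06% to 1.64% as many counts, and the sources used here do not give whether strand was used in counting.

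The largest change among the 10 genes, on the log2 scale, was that of *Tnni2* (ENSMUSG00000031097, chromosome 7 from 141995545 to 141998147, plus strand), which encodes fast skeletal troponin I, the inhibitory subunit. Its level was 217, 228, 223, 215 and 251 FPKM in si-Control 1 to 5 and 311, 372, 413, 296 and 311 FPKM in si-*Fndc1* 1 to 5. All knockdown libraries were above all controls, with no value between 251 and 296 FPKM. Means were 227 ± 14.6 and 341 ± 49.95 FPKM (SD, n = 5 each), a ratio of 1.504. The log2 fold change was 0.60 ± 0.09 (SE, adjusted p = 0.000677, edgeR quasi-likelihood with Benjamini-Hochberg), and it was called in all 23 alternatives, from 0.43 to 0.64. Between 25955 and 48535 counts per library lay behind these values.

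*Tnni1* (ENSMUSG00000026418, chromosome 1 from 135707172 to 135738727, plus strand) encodes slow skeletal troponin I. It measured 137, 121, 125, 139.9 and 138 FPKM in si-Control and 141, 128, 139, 151 and 125 FPKM in si-*Fndc1*. The ranges overlapped in most of their length, and the log2 fold change was 0.06 ± 0.06 (SE, adjusted p = 0.504, edgeR quasi-likelihood with Benjamini-Hochberg). With the GC and length offset it was 0.19 and called higher (adjusted p = 0.0393, same test). The difference between the slow and the fast troponin I gene is tested directly by their shares below.

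Both troponin C genes, which encode the calcium sensor, were among the most abundant of the 10 and neither passed the test. *Tnnc1* (ENSMUSG00000091898, chromosome 14 from 30930269 to 30933686, plus strand), shared by slow and cardiac muscle, measured 1435, 1472, 1414, 1385 and 1419 FPKM in si-Control and 1488, 1413, 1581, 1521 and 1464 FPKM in si-*Fndc1*. *Tnnc2* (ENSMUSG00000017300, chromosome 2 from 164619081 to 164621887, minus strand), the fast form, measured 704, 679.7, 677, 661 and 689.9 FPKM in si-Control and 691, 683, 770.1, 689 and 714 FPKM in si-*Fndc1*. For *Tnnc1* 3 knockdown libraries, and for *Tnnc2* 2, were above all controls, while the rest lay among them. The log2 fold changes were 0.08 ± 0.04 and 0.06 ± 0.04 (SE, adjusted p = 0.130 and 0.242, edgeR quasi-likelihood with Benjamini-Hochberg). On quantile-normalized FPKM *Tnnc2* was called lower, at -0.27 (adjusted p = 0.000435, limma), so its direction depended on the scaling. *Ube2c*, on the opposite strand, overlaps *Tnnc2* and had 1.901% to 2.515% as many counts.

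Among the tropomyosins, *Tpm2* (ENSMUSG00000028464, chromosome 4 from 43514711 to 43523464, minus strand), which encodes beta-tropomyosin, rose. Its level was 377, 332, 329, 359 and 347 FPKM in si-Control 1 to 5 and 465, 462, 439.9, 428 and 385 FPKM in si-*Fndc1* 1 to 5. The groups did not overlap, although si-*Fndc1* 5 at 385 FPKM was close to si-Control 1 at 377 FPKM. Means were 349 ± 19.9 and 436 ± 32.3 FPKM (SD, n = 5 each), a ratio of 1.25, and the log2 fold change was 0.33 ± 0.06 (SE, adjusted p = 0.00142, edgeR quasi-likelihood with Benjamini-Hochberg). On quantile-normalized FPKM the value was 0.10 (adjusted p = 0.280, limma) and the call was lost, whereas with the GC and length offset it was 0.45. The library si-*Fndc1* 5, with the lowest *Tnnt1* and *Tpm2* of its group, also had the lowest sum of liver markers of its group, 46.9 FPKM against 101 to 172 FPKM in the other 4. It also had the lowest *Tnnt3* and *Tnni1* and the fewest counted reads of its group. The library with the next lowest sum of liver markers, si-*Fndc1* 1 at 101 FPKM, had the highest *Tnnt1* and *Tpm2* of its group. The part of the liver markers in these levels was not tested.

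*Tpm1* (ENSMUSG00000032366, chromosome 9 from 66929872 to 66956549, minus strand) encodes alpha-tropomyosin, and non-muscle forms are spliced from it as well. It measured 180.2, 189.6, 183, 179.7 and 187 FPKM in si-Control and 180.4, 167, 177, 183 and 178 FPKM in si-*Fndc1*. Of the knockdown libraries 3 were below all controls and 2 lay among them. The change was -0.05 ± 0.03 on the log2 scale (SE, adjusted p = 0.287, edgeR quasi-likelihood with Benjamini-Hochberg). On quantile-normalized FPKM it was -0.17 and called lower (adjusted p = 0.00279, limma), and it was also called lower, at -0.10, with an offset for GC content and annotated length.

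*Tpm3* (ENSMUSG00000027940, chromosome 3 from 89979956 to 90008209, plus strand) encodes the tropomyosin of slow fibres and, by other splice forms, tropomyosins of non-muscle cells. It measured 35.4, 35.1, 36.1, 35.9 and 35.8 FPKM in si-Control and 34.4, 36.5, 34.9, 34.3 and 36.2 FPKM in si-*Fndc1*. The control libraries lay inside the range of the knockdown libraries, and the log2 fold change was -0.01 ± 0.03 (SE, adjusted p = 0.824, edgeR quasi-likelihood with Benjamini-Hochberg). *Tpm3-rs7*, a near copy of *Tpm3*, had 11.9% to 14.4% as many counts. How reads that match both were assigned is not given, so the effect on the level of *Tpm3* is not known. Counts per gene do not separate the splice forms of the 3 tropomyosin genes.

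**Figure D2:**
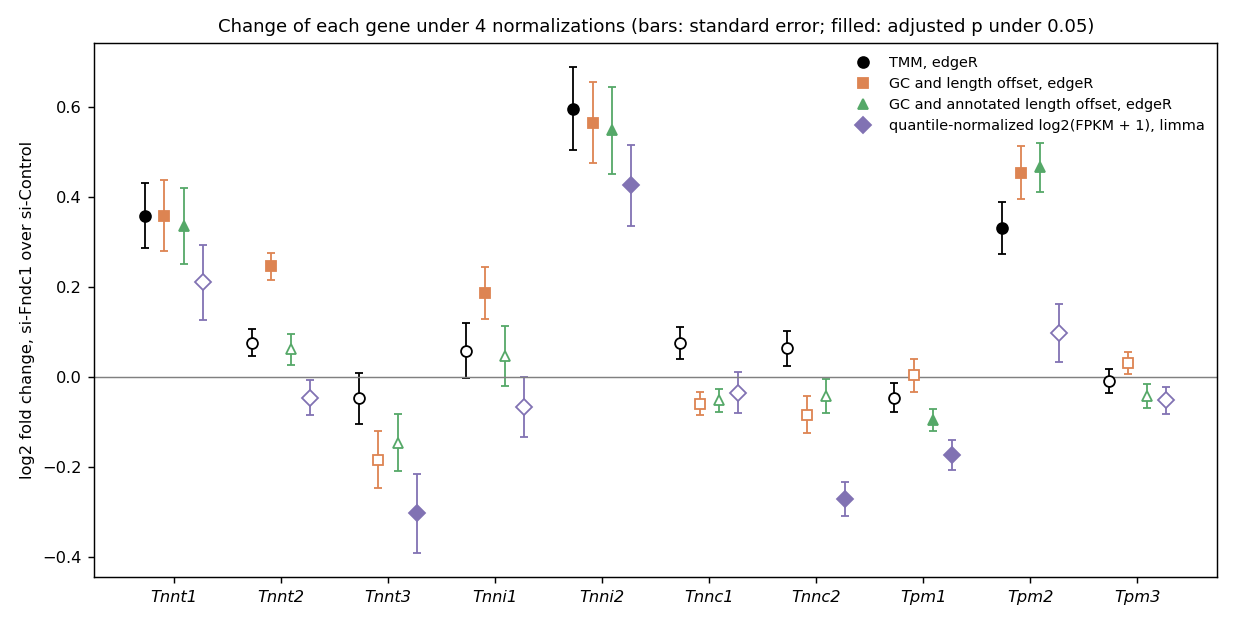
Log2 fold change of each gene, si-*Fndc1* over si-Control (vertical axis), under 4 ways of normalizing, with standard errors as bars and filled symbols where the adjusted p was under 0.05. *Tnni2* is filled under all 4, and *Tnnt1* and *Tpm2* are open for quantile-normalized values. The signs of *Tnnt2*, *Tnni1*, *Tnnc1*, *Tnnc2*, *Tpm1* and *Tpm3* differ between normalizations.

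Levels of different genes can be set side by side only per transcript length, and the length matters here. By deposited FPKM the order in si-Control was *Tnnc1*, *Tnnc2*, *Tnnt3*, *Tpm2*, *Tnni2*, *Tpm1*, *Tnni1*, *Tnnt1*, *Tnnt2* and *Tpm3*. Neighbours in this order had separate ranges except *Tnnc2* with *Tnnt3* and *Tnnt1* with *Tnnt2*. In si-*Fndc1* *Tnnt1* stood above *Tnni1* by its mean, with ranges that overlapped in 3 neighbouring pairs, *Tpm2* with *Tnni2*, *Tpm1* with *Tnnt1* and *Tnnt1* with *Tnni1*.

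The length implied by the authors' counts and FPKM was far above that of the annotated mRNA for several genes, 8620 against 1085 bases for *Tnnt2*, 7211 against 1642 for *Tpm1*, 6769 against 1891 for *Tpm3* and 4003 against 893.5 for *Tnni1* (median of annotated coding transcripts, build NCBIM37). With the same counts divided by annotated length, *Tnnt2* was 837 ± 28.2 on the FPKM scale in si-Control (SD, n = 5) in place of 105 ± 3.54 FPKM, and moved from rank 9 to rank 4 of 10. *Tpm1* at 806 ± 18.5 then stood above *Tpm2* at 537 ± 31.2 on this scale, the opposite of their order by deposited FPKM. *Tnnc1* kept the first rank and *Tpm3* the last on both scales. The ratio of 1 gene's FPKM between groups does not change with the length it is divided by.

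**Figure D3:**
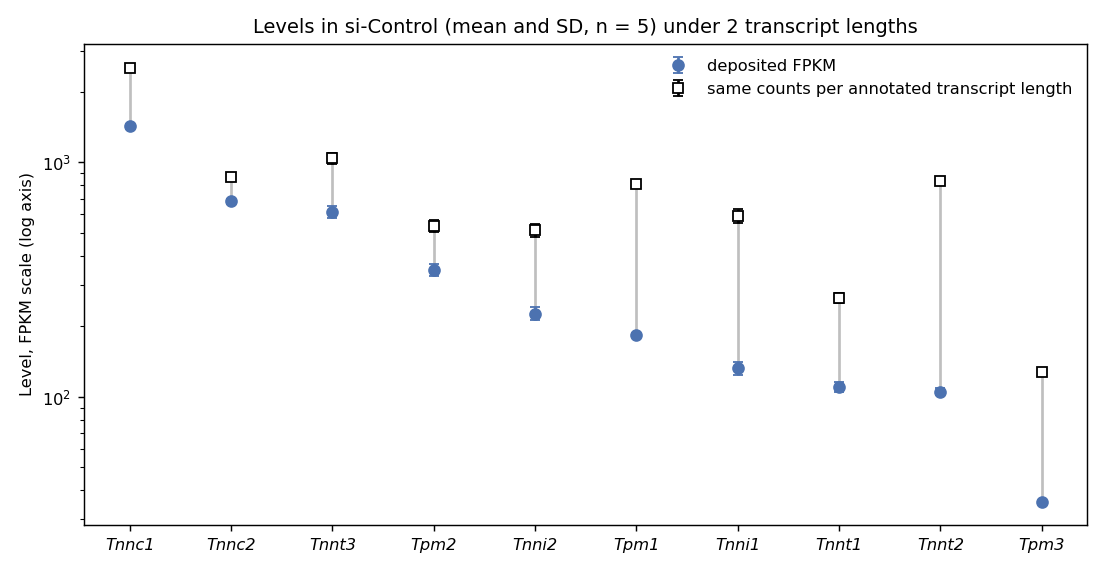
Level of each gene in si-Control on the FPKM scale (log axis), as mean and SD of 5 libraries, with the deposited FPKM as filled circles and the same counts per annotated transcript length as open squares. Both symbols are closest for *Tnnc2* and farthest apart for *Tnnt2*, 105 against 837.

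Since genes of 1 subunit fill the same place in the filament, the share of each in its subunit was compared between groups. A share is taken within a library and does not change with a factor that scales a whole library. Shares of 1 subunit add up to the whole, so a rise of 1 gene lowers the shares of the others even at unchanged levels. The tests within a subunit are therefore tied to each other and to the calls above. *Tnni1*, *Tnnt3*, *Tpm1* and *Tpm3*, whose shares were lower, were not called lower in level in the edgeR fit without an offset. In total 8 shares were tested, by two-sided exact permutation tests over libraries, for which 5 against 5 allow no p below 0.00794.

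Within troponin I the share of the slow gene was lower, and that of the fast gene higher, in si-*Fndc1*. *Tnni1* made up 36.9% ± 2.10 of troponin I FPKM in si-Control and 28.9% ± 3.68 in si-*Fndc1* (SD, n = 5 each), 7.97 percentage points less. Control libraries lay between 34.7% and 39.5% and knockdown libraries between 25.2% and 33.8%, with no overlap. The level of *Tnni1* itself was not called, whereas that of *Tnni2* rose. The exact permutation p was 0.00794, the smallest possible, and 0.0127 after Benjamini-Hochberg adjustment over the 8 shares. Per annotated length the share was 53.5% in si-Control and 44.3% in si-*Fndc1*, with the same p, so that which of the genes was the major form in si-Control depended on the length used and the direction of the difference did not. After the GC and length offset the ranges overlapped, at 34.0% to 37.6% and 26.2% to 35.4% (exact permutation p = 0.0317, adjusted p = 0.0363).

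Within troponin T it was the slow gene that gained. *Tnnt1* rose from 13.3% ± 0.406 to 16.7% ± 0.980 of troponin T FPKM and *Tnnt3* fell from 74.0% ± 0.655 to 70.2% ± 0.832 (SD, n = 5 each), both without overlap between groups and with an exact permutation p of 0.00794 (0.0127 adjusted over the 8 shares). The share of *Tnnt2* was 12.7% ± 0.565 and 13.1% ± 0.754, which overlapped (exact permutation p = 0.310). Per annotated length *Tnnt2* made up 39.1% and 39.7% of troponin T, *Tnnt3* 48.6% and 45.2%, and *Tnnt1* 12.3% and 15.2%. After the GC and length offset the share of *Tnnt2* also differed, 11.6% against 14.3% (exact permutation p = 0.00794, adjusted p = 0.0106). The slow member thus lost share in troponin I and gained it in troponin T.

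A difference in the makeup of troponin C was not detected. *Tnnc1* was 67.6% ± 0.501 of troponin C FPKM in si-Control and 67.8% ± 0.719 in si-*Fndc1*, a difference of 0.190 percentage points (SD, n = 5 each, exact permutation p = 0.690). All 10 libraries lay between 67.1% and 68.8%.

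Among the tropomyosins *Tpm2* rose from 61.3% ± 1.68 to 67.2% ± 1.99 of the summed FPKM of *Tpm1*, *Tpm2* and *Tpm3*, and *Tpm1* fell from 32.4% ± 1.51 to 27.4% ± 1.76 (SD, n = 5 each). Neither overlapped between groups, with an exact permutation p of 0.00794 for each (0.0127 adjusted over the 8 shares). The share of *Tpm3* fell from 6.28% ± 0.216 to 5.45% ± 0.361, where 1 knockdown library at 6.04% overlapped the controls at 5.98% to 6.59% (exact permutation p = 0.0159, 0.0212 adjusted). The levels of *Tpm1* and *Tpm3* were not called, at log2 fold changes of -0.05 and -0.01, whereas that of *Tpm2* rose. Per annotated length *Tpm1* was the larger, at 54.8% in si-Control and 49.3% in si-*Fndc1*, and *Tpm2* made up 36.5% and 42.6%.

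**Figure D4:**
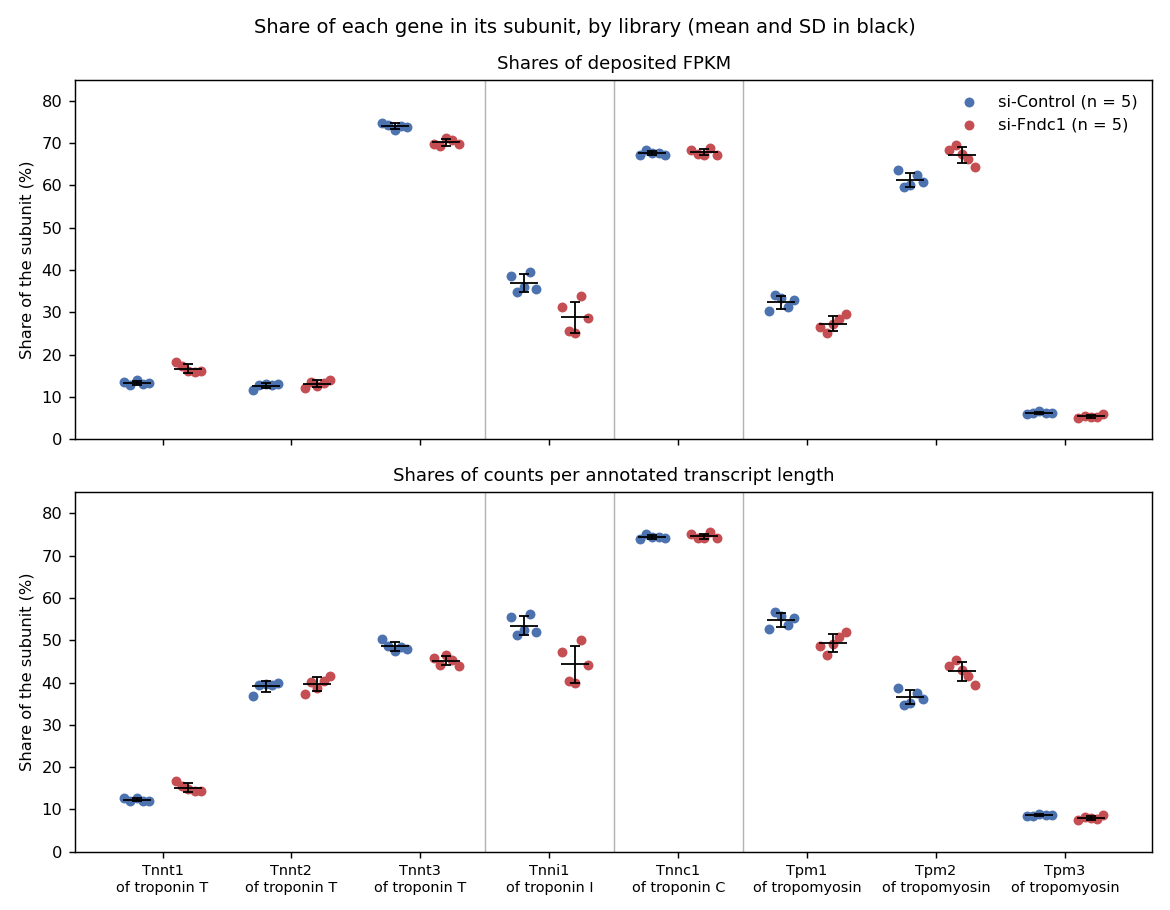
Share of each gene in its subunit (percent, vertical axes from 0) in the 5 si-Control (blue) and 5 si-*Fndc1* (red) libraries, with mean and SD in black, from deposited FPKM (top) and from counts per annotated transcript length (bottom). The shares of *Tnni1*, *Tnnt3* and *Tpm1* are lower and those of *Tnnt1* and *Tpm2* higher in si-*Fndc1* on both scales, while the level of several shares differs between the scales.

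Summed over the genes of a subunit, deposited FPKM was 832 ± 40.2 in si-Control and 844 ± 59.9 in si-*Fndc1* for troponin T, and 2107 ± 41.6 and 2203 ± 93.1 for troponin C (SD, n = 5 each). Troponin I summed to 359 ± 17.0 and 478 ± 48.4 FPKM, and the control libraries, at most 389 FPKM, all lay below the knockdown libraries, at least 436 FPKM. The tropomyosins *Tpm1*, *Tpm2* and *Tpm3*, without *Tpm4*, summed to 568 ± 17.2 and 648 ± 30.4 FPKM, a ratio of 1.14 against 1.33 for troponin I. Per annotated length the ratios were 1.07 and 1.26, and on that scale the troponin I sums still lay apart, while those of the tropomyosins overlapped, with the highest control at 1500.8 and the lowest knockdown library at 1500.5. The sums are descriptive and carry no test.

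Some of the 10 genes lie close together. *Tnnt2* and *Tnni1* are 25.4 kb apart on chromosome 1, and *Tnnt3* and *Tnni2* 54.4 kb apart on chromosome 7, a pairing of troponin T and I genes. *Tnni2* rose by 0.60 on the log2 scale while its neighbour *Tnnt3* stood at -0.05, and *Tnnt1* rose by 0.36 beside *Tnni3*, the cardiac troponin I gene, which was 2.3 kb away and measured at most 0.297 FPKM.

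Other genes of the thin filament moved in both directions. Of 24 such genes 20 were tested, of which 5 rose and 6 fell, with a median log2 fold change of 0.06. Over all genes tested 17.3% were called higher and 17.2% lower. The 3 with the smallest p were *Cfl2*, an actin-severing cofilin of muscle, at 0.53 ± 0.03, *Capza2*, a subunit of the actin capping protein, at 0.27 ± 0.03, and *Tpm4*, a tropomyosin gene outside the 10, at 0.28 ± 0.04 (log2 fold change ± standard error). The other 2 that rose were *Klhl41*, a kelch protein that stabilizes nebulin, and *Tmod3*, a tropomodulin that caps filament ends, and among those that fell was *Neb*, the giant nebulin that runs along the filament, at -0.44 ± 0.10. *Tpm4* measured 124 ± 4.99 FPKM in si-Control and 150.1 ± 4.64 FPKM in si-*Fndc1* (SD, n = 5 each). *Acta1*, the skeletal actin on which troponin and tropomyosin sit, was at 1898 ± 90.7 and 1978 ± 172 FPKM and was not called. All these calls are from the fit without an offset. With the GC and length offset 3 thin filament genes were called higher, against 11.4% of genes with a GC content, and 4 lower. With the annotated length in that offset 3 were higher and 2 lower, the latter against 10.4%. Which of the named genes kept their calls is not given here.

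Fast and slow fibre genes outside the 10 were called in both directions, for the fast fibre genes only under some of the normalizations. Of 13 tested fast fibre genes 3 rose and 3 fell, led by *Mylpf*, the fast regulatory myosin light chain, which rose by 0.42 ± 0.04, *Actn3*, the fast alpha-actinin, which changed by -0.21 ± 0.03, and *Myl1*, a fast essential light chain, which rose by 0.21 ± 0.07 (log2 fold change ± standard error). Of 12 tested slow fibre genes 2 rose and 3 fell, led by *Myl6b*, a slow light chain, at 0.44 ± 0.06, *Casq2*, a calcium store protein, at -0.18 ± 0.03, and *Ankrd2*, an ankyrin repeat protein of slow muscle, at -0.20 ± 0.04. The other called genes were *Casq1* (higher), *Mylk2* and *Atp2a1* (both lower) among fast fibre genes, and *Myoz2* (higher) and *Myh7* (lower) among slow fibre genes. The median log2 fold changes were -0.05 and 0.02. Beside these counts, 17.3% of all genes tested were called higher and 17.2% lower. With the GC and length offset, alone, with a replicate block or with annotated length, 1 fast fibre gene was called higher, *Mylpf*, and 0 lower, and on quantile-normalized FPKM 0 were higher and 3 lower. Without single libraries the fast fibre genes counted 1 to 3 higher and 1 to 2 lower.

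Of the developmental genes, *Myl4*, the embryonic light chain, rose by 0.12 ± 0.03, and the embryonic and perinatal myosins *Myh3* and *Myh8* were at -0.17 ± 0.09 and -0.12 ± 0.11 and not called (log2 fold change ± standard error). *Myl4* lost its call on quantile-normalized FPKM, where *Myh3* was called lower.

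Of 25 listed regulators of troponin and tropomyosin genes 21 were tested, of which 6 fell and 1 rose, with a median log2 fold change of -0.08. These counts stand beside 17.2% called lower and 17.3% called higher over all genes tested. *Srf*, the factor that binds CArG boxes, measured 17.6 ± 1.56 FPKM in si-Control and 12.5 ± 0.928 FPKM in si-*Fndc1*, and changed by -0.48 ± 0.07 on the log2 scale. *Nfatc1*, a calcineurin-dependent factor of slow fibres, changed by -0.29 ± 0.05. Both changes are from the fit without a GC and length offset. The gene that rose was *Myod1*, at 0.16 ± 0.04, named after its value was seen. Its call was lost with a replicate block and on quantile-normalized FPKM, where 0 regulators were higher. With the GC and length offset 3 regulators were higher and 3 lower, and with the annotated length in that offset 2 were lower. Whether *Srf* and *Nfatc1* kept their calls in those fits is not given here.

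**Figure D5:**
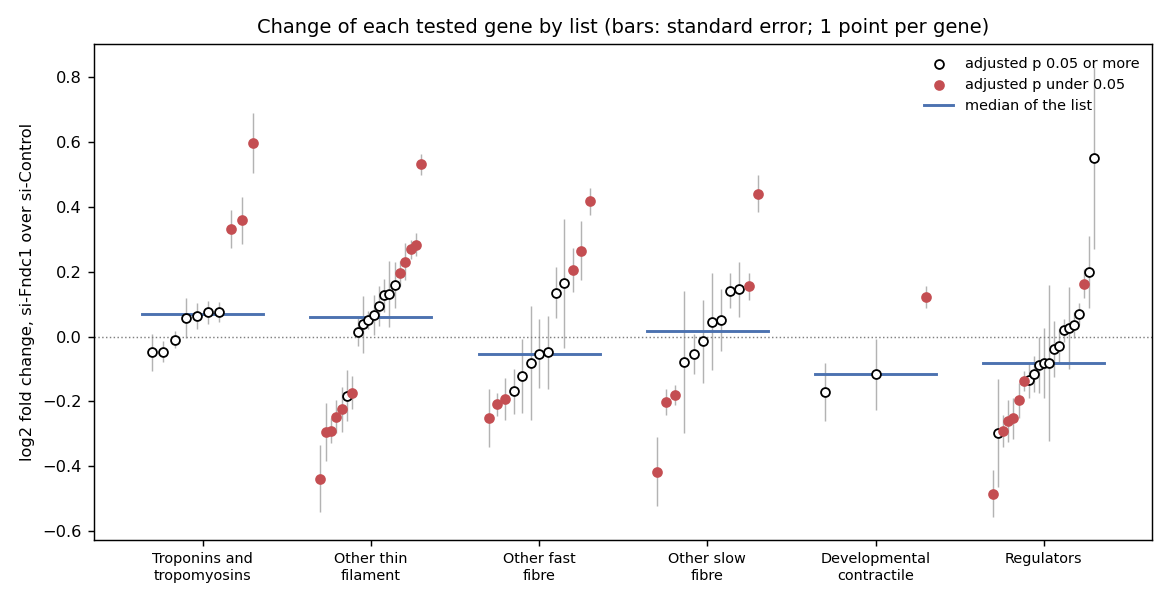
Log2 fold change of each tested gene, si-*Fndc1* over si-Control (vertical axis), for the 10 troponin and tropomyosin genes and 5 lists of related genes, with standard errors as bars, red points where the adjusted p was under 0.05 and a blue line at each list's median. The list medians lie between -0.12 and 0.07, and each list of more than 10 tested genes holds red points on both sides of 0 in the fit shown.

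Within groups the 10 genes varied by a coefficient of variation of 1.16% to 6.44% among si-Control libraries and by 1.44% to 14.7% among si-*Fndc1* libraries. *Tnni2* was the most variable of the 10 in si-*Fndc1*, whereas in si-Control *Tnni2* at 6.44% and *Tnni1* at 6.40% were nearly equal. As a description over 10 libraries, the genes outside the 10 whose log2 level followed their mean most closely once group means were removed were *Snx15* (Pearson r = 0.94), *Flywch1* (0.92), *2310033P09Rik* (0.91), *Gtdc1* (0.90) and *Mir3100* (0.90). These were the largest of many correlations over few libraries, and the libraries share their depth and composition.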

How the data were processed

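Gene expression in C2C12 cells was measured by RNA-sequencing in 5 si-Control and 5 si-*Fndc1* libraries, grouped by their titles. The authors deposited, for 55359 genes, the read count without normalization and an FPKM value, the same number scaled to gene length and library depth, with 0.0001 in place of an FPKM of 0. Alignment is given as TopHat to mm10 with htseq-count in their methods and as STAR to mm9 in the series text, while the submitters' processing notes name GRCm39 and cutadapt 1.9. For this reason coordinates are given as the table lists them, without a build. The labels name another transfection reagent than the methods, which also speak of 4 libraries without saying which, and all 10 were used. GO and KEGG columns of the table were not used.

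The quasi-likelihood test of edgeR 4.0.16 in R 4.3.3, after TMM and without a replicate term, was run on the deposited counts of genes that averaged 0.5 FPKM or more, with Benjamini-Hochberg adjustment over the 13548 genes tested and a threshold of 0.05. Levels and shares were taken from the FPKM values as deposited. Shares were compared by two-sided exact permutation tests (Python 3.11.15 and numpy 2.4.6). Alternatives were DESeq2 1.42.0, limma 3.58.1 on log2(FPKM + 1) as deposited and after quantile normalization, other size factors, other filters, a replicate block, offsets for GC content and length (splines with 5 degrees of freedom, for the 82.6% of tested genes with a GC content in NCBIM37), and leaving out each library. Whether the numbers 1 to 5 pair the libraries beyond the name is not given. On simulated counts for 13548 genes edgeR recovered 46 of 88 genes changed by 0.5 and 94 of 112 changed by 1 on the log2 scale, with 7 false calls. Far fewer genes were changed there than the 4663 called in the data, so the 7 false calls give no rate of false calls for the data. Recovery was not split by level, so it does not give the chance of detecting a change in genes with high counts, such as the troponin and tropomyosin genes.

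The 10 genes and the lists were chosen with earlier results of these data known. Named besides the 10 were *Fndc1*, the 3 called genes with the smallest p of each list, all genes of lists of 5 or fewer, the 5 genes most alike, genes overlapping 1 of the 10 and defining markers. *Acta1*, *Myod1* and further called genes of the lists were named after their values were seen. For the regulators 1 gene that this rule names is not reported here.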

Additional observations from a re-analysis of the deposited data

Results flagged for a closer look

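The share of *Tnnt2* in troponin T FPKM was 11.7% in si-Control 1, below the other 4 si-Control libraries at 12.8% to 13.1%, a gap that passed Dixon's test for a single distant value in a group of 5. The same library had the highest *Tnnt1* and *Tnnt3* of its group. In total 36 groups of 5 values were checked and 1 such value was found, where chance gives about 1 in 20.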

How the results depend on the processing

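The rise of *Tnni2* was called in all 23 alternatives, and those of *Tnnt1* and *Tpm2* in 22, all but limma on quantile-normalized log2(FPKM + 1). There 1 of the 10 genes was called higher and 3 lower, and *Tnnt2* (-0.0469), *Tnni1* (-0.0665), *Tnnc1* (-0.0351) and *Tnnc2* (-0.27) turned negative on the log2 scale. With the GC and length offset 5 were higher, at 2639 genes called of 11185 in place of 4663 of 13548, and *Tnnc1* (-0.0603), *Tnnc2* (-0.0849), *Tpm1* (0.0035) and *Tpm3* (0.0313) changed sign. With the annotated length in that offset, chosen after seeing the data like the shares per annotated length and the fit on genes with a GC content alone, 1 was lower, 2358 genes were called, and *Tnnc1* (-0.0526) and *Tnnc2* (-0.0423) changed sign. *Tpm3* was 0.0085 under upper-quartile normalization, and -0.0228 to 0.0015 without single libraries, above 0 without si-*Fndc1* 1 or 4. The causes were not tested.

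A pairing by replicate number was not seen in the levels, since same-numbered libraries correlated by -0.06 to 0.06 in their deviations, and not every library correlated best with its own number. Whether same-numbered libraries shared a culture or a transfection is not given, and these correlations cannot decide it. With a replicate block 3572 genes were called, and the GC and length offset with that block called 1749 genes, 5 of the 10 higher, with *Tnnc1* at -0.0606, *Tnnc2* at -0.0849, *Tpm1* at 0.0031 and *Tpm3* at 0.031. Under the block the differences in share of *Tnnt1* (3.38 points), *Tnnt3* (-3.82), *Tnni1* (-7.97), *Tpm1* (-5.03), *Tpm2* (5.87) and *Tpm3* (-0.833) had an adjusted p of 0.0833, since 5 pairs allow no p below 0.0625. After the GC and length offset the share of *Tnnt2* differed by 2.65 points (adjusted p = 0.0106).

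Of the lists, in the order higher then lower, other thin filament genes counted 5 and 6, with 3 higher under the GC offsets (with or without the block), 3 lower under either block and 2 lower with the annotated length. Other fast fibre genes counted 3 and 3, with 1 higher with no filter on FPKM, the block and all GC offsets, 0 higher after quantile normalization, 1 lower with upper-quartile normalization, no filter and the block, and 0 lower under all GC offsets. Of other slow fibre genes 1 was higher in place of 2 under all GC offsets. *Myl4* was lost under the block and after quantile normalization (0 higher), where *Myh3* was lower (1). Regulators counted 1 higher and 6 lower, with 0 higher after quantile normalization and under the block, 3 higher with the GC and length offset, 2 with the block or annotated length in it, and 3 and 2 lower in those fits.

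Without each library in turn, 4000 to 4627 genes were called, with 3 of the 10 higher and 0 lower in every such fit. Thin filament genes counted 5 to 6 higher and 3 to 6 lower, fast fibre genes 1 to 3 and 1 to 2, and regulators 1 to 3 and 6 to 7. Fast fibre genes counted 1 higher without si-Control 3 or 4 or si-*Fndc1* 1, 3 or 4, and 1 lower without si-Control 1, 3, 4 or 5 or si-*Fndc1* 1, 3 or 5. Thin filament genes counted 3 lower without si-*Fndc1* 5, and regulators 3 higher without si-Control 4. The difference in the *Tnnc1* share ran from -0.0655 to 0.386 points, with the sign turning without si-*Fndc1* 4. All differences in share past the threshold kept it. *Tnni2* lay between 0.52 and 0.64, *Tpm2* between 0.31 and 0.38 and *Tnnt1* between 0.29 and 0.40. Each of the 10 genes had at least 13759 counts in every library.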
